A study of Homo sapiens with 3 samples.

Results

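The β-catenin destruction complex was examined through 10 genes, chosen by symbol from the 23131 rows of the gene table for HCT-116 cells. The genes are the scaffolds *APC*, *APC2* and *AXIN1*, the kinases *GSK3A*, *GSK3B* and *CSNK1A1*, the substrate *CTNNB1*, the ubiquitin ligase subunit *BTRC*, and *DVL2* and *DVL3*. *DVL2* and *DVL3* encode Dishevelled regulators of the complex, and all 10 are called destruction complex genes for short. All 10 had a row. HCT-116 is a colon carcinoma line labelled as wild-type for *APC* and as carrying *CTNNB1*ΔSer45, and every library of the series shares this background. The series holds 1 library of cells transfected with pooled anti-*APC* siRNA, 1 with pooled scrambled siRNA and 1 control called untransfected, which the labels also describe as given the transfection reagent without siRNA. Cells were transfected on 2 consecutive days and harvested 48 hours after the second transfection. The anti-*APC* library is compared with the untransfected library, called the control, and the scrambled library was not analysed here. With 1 library per condition there is no replicate spread and no test, so each difference is between these libraries and includes any effect of siRNA delivery. In bulk RNA, fewer cells with a transcript and less transcript per cell cannot be told apart.

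In cells without a WNT signal, β-catenin is held by the scaffold proteins Axin and APC, phosphorylated by casein kinase 1α and then by GSK3, recognised by β-TrCP and degraded by the proteasome. A WNT signal recruits Dishevelled and Axin to the membrane and stops this cycle, and stable β-catenin then enters the nucleus and activates genes with TCF factors. In the colon the pathway maintains the progenitor cells of the crypt, and loss of *APC* is the usual first step of colorectal tumours. Because the complex works on protein, its transcript levels do not measure its activity.

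The stretch of β-catenin that the complex acts on is shown because the deletion carried by this cell line lies in it. It is part of exon 3 of *CTNNB1*, codons 30 to 48, on the plus strand of GRCh37 at chr3:41266091-41266147. The sequence is that of the reference genome and was not read from these cells. Capitals mark codons 33, 37, 41 and 45, which encode the residues phosphorylated in the degradation signal.
CTNNB1 codons 30 to 48: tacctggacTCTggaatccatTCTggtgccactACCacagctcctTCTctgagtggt
The last capital codon, at positions 41266136 to 41266138, is the Ser45 codon of the label. Casein kinase 1α phosphorylates this residue first, which primes the 3 others for GSK3.

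*CTNNB1* had the highest transcript level of the 10 genes and *APC2* the lowest. Levels are FPKM, read counts corrected for transcript length and for the size of each library, so genes can be set side by side roughly. Sequence shared with other genes, given below for *GSK3A* and *CSNK1A1*, makes a level less certain. In untransfected cells *CTNNB1* had 177 FPKM, *CSNK1A1* 89.9 and *GSK3A* 48.2. A middle group followed, with *DVL2* at 20.4 FPKM, *DVL3* at 16.4, *GSK3B* at 15.9 and *BTRC* at 12.7. The scaffolds were at the low end, *APC* at 9.15 FPKM, *AXIN1* at 6.46 and *APC2* at 0.172. Among 11815 genes that reached 1 FPKM in each library, 95.5% were below *CTNNB1* in untransfected cells, 36.4% below *APC* and 27.3% below *AXIN1*. β-catenin transcript was thus 19.3 times that of *APC* and 27.4 times that of *AXIN1* on the FPKM scale.

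**Figure D1:**
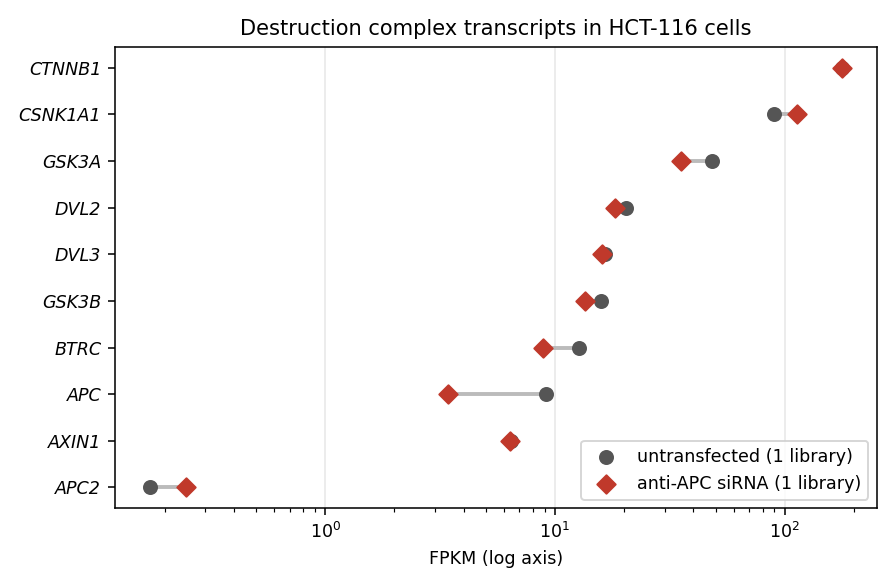
FPKM of the 10 destruction complex genes on a log axis, with a grey circle for the untransfected and a red diamond for the anti-*APC* library (1 library each, no error bars). The gap is widest for *APC* (9.15 against 3.43 FPKM), and the symbols of *CTNNB1*, *AXIN1* and *DVL3* nearly coincide.

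After anti-*APC* siRNA the order was the same for 8 of the 10 genes. *APC* and *AXIN1* changed places, with *APC* at 3.43 FPKM and *AXIN1* at 6.37. *CTNNB1* transcript was then 51.9 times that of *APC*, against 28.0 times that of *AXIN1*. By ratio, the closest neighbours in the untransfected library were *DVL3* and *GSK3B*, with 16.4 and 15.9 FPKM, and in the anti-*APC* library *DVL2* and *DVL3*, with 18.3 and 16.0 FPKM. Their order cannot be judged against a replicate spread.

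*APC* itself, the targeted gene, was the member that differed most. Its level was 9.15 FPKM in the control against 3.43 FPKM after silencing, so 37.5% of the transcript remained. The log2 ratio was -1.41, and 0.330% of the 11815 genes had a lower ratio. *APC* lies on chromosome 5 of GRCh37 from 112043215 to 112181936 on the plus strand.

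At a 1.5-fold limit, with at least 1 FPKM in both libraries, 1 of 9 members was lower (*APC*) and 0 were higher. *APC2* was below that minimum. Over all genes, 5.76% were lower and 2.29% higher by the same limit. After a trend on level was subtracted the all-gene calls were 353 higher and 445 lower, against 270 and 680 as deposited. At a lower limit of 0.32 on the log2 scale, 3 members were lower (*APC*, *BTRC* and *GSK3A*) and 1 was higher (*CSNK1A1*), beside 17.5% and 6.86% of all genes. The median log2 ratio of the 8 members other than *APC* with at least 1 FPKM was -0.10, beside -0.05 over all genes. These shares are from few genes and are read only as a description.

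**Figure D2:**
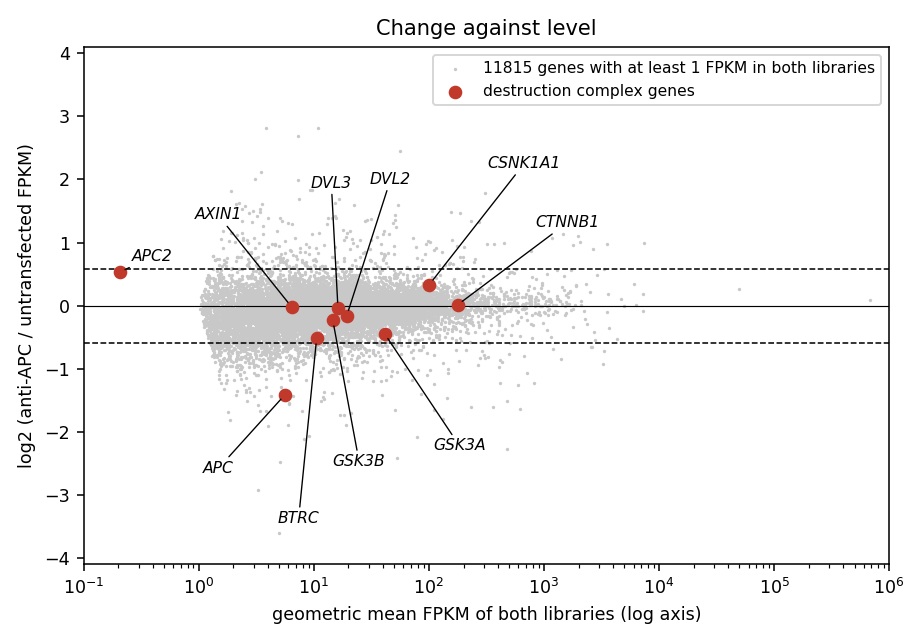
Log2 ratio of anti-*APC* over untransfected FPKM against the geometric mean FPKM (log axis), with 11815 genes in grey, the 10 destruction complex genes in red and dashed lines at 1.5-fold. *APC* lies below the lower line at -1.41, and *APC2*, at the far left, is the only member below 1 FPKM.

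Among the scaffolds, *AXIN1* had nearly the same level in both libraries. Axin1 is the scaffold that binds APC, both GSK3 kinases, casein kinase 1 and β-catenin. *AXIN1* had 6.46 FPKM in the control against 6.37 FPKM after silencing, a log2 ratio of -0.02. It lies on chromosome 16 from 337440 to 402723 on the minus strand. Its paralog *AXIN2*, a feedback inhibitor of WNT signalling and a known β-catenin target, had 28.7 FPKM with and 4.11 FPKM without siRNA, a log2 ratio of 2.81. *AXIN1* therefore made up 61.1% of the summed *AXIN* transcript in untransfected cells and 18.1% after anti-*APC* siRNA. The sum of both went from 10.6 to 35.1 FPKM.

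*APC2* encodes a paralog of APC that can also bind β-catenin and is best known from the nervous system. Its level was 0.172 FPKM in untransfected cells against 0.248 FPKM after silencing, a log2 ratio of 0.53. At an estimated depth of 22100000 untransfected reads this corresponds to about 39 and 51 reads, and the 95% interval from counting error alone is -0.08 to 1.13, so a difference was not detectable at this depth. *APC2* lies on chromosome 19 from 1446301 to 1473243 on the plus strand. The end of *C19orf25*, on the minus strand, overlaps it, and Cuffdiff placed both at 1 locus. *C19orf25* had 7.41 FPKM with and 9.80 FPKM without siRNA. The TruSeq RNA kit named in the methods does not mark strand, so reads of the shared stretch cannot be told apart. *APC2* made up 1.84% of the summed *APC* and *APC2* transcript without siRNA and 6.73% with it, and the sum went from 9.32 to 3.68 FPKM.

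Both GSK3 transcripts were lower with anti-*APC* siRNA. GSK3α and GSK3β are the kinases that complete the phosphorylation of β-catenin, and both also act in glycogen and insulin signalling. *GSK3A*, on chromosome 19 from 42730377 to 42746777, had 35.4 FPKM with and 48.2 FPKM without siRNA, which is 73.4% of the untransfected level and a log2 ratio of -0.45. *GSK3B*, on chromosome 3 from 119540168 to 119813841, had 13.5 and 15.9 FPKM, a log2 ratio of -0.23. The counting intervals are -0.54 to -0.35 for *GSK3A* and -0.31 to -0.15 for *GSK3B*, and they leave out all biological and handling error. Among the 500 genes nearest in level, 4.80% had a lower ratio than *GSK3A* and 23.4% a lower ratio than *GSK3B*. Of the 50-base words of the canonical *GSK3A* transcript, 22.1% also occur in other annotated genes, nearly all in a read-through gene at the same locus, whereas *GSK3B* shares none. *GSK3A* made up 75.3% of the summed *GSK3* transcript in untransfected cells and 72.4% after siRNA.

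*CSNK1A1*, which encodes casein kinase 1α, the priming kinase of Ser45, was the only one of the 9 members above 1 FPKM that was higher by the lower limit of 0.32 (log2). Its level was 89.9 FPKM in the control against 113 FPKM after silencing, a log2 ratio of 0.33, and 95.4% of the 500 genes nearest in level had a lower ratio. It lies on chromosome 5 from 148872545 to 148931034 on the minus strand. Of the 5311 different 50-base words of its canonical transcript, 48.5% also occur in a transcript of another annotated gene, mostly in 1 non-coding RNA annotated within the same locus, which has no row under that name in the table. For *APC* the share was 1.70%. The retrogene *CSNK1A1L* shares 0.527% of the words and had 9.70 FPKM with and 7.98 FPKM without siRNA. *CSNK1A1* held 91.8% and 92.1% of the sum of these 2 genes. How the authors' program divided shared reads was not tested, so the level of *CSNK1A1* is less certain than that of *CTNNB1* or *BTRC*, for which no such word was shared.

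*BTRC*, which encodes β-TrCP1, the F-box protein that binds phosphorylated β-catenin, had the lowest ratio among the members after *APC*. *BTRC* had 12.7 FPKM in the control against 8.86 FPKM after silencing, 70.0% of the untransfected level and a log2 ratio of -0.51. Over all genes 7.82% had a lower ratio, and 6.20% of the 500 genes nearest in level did. The counting interval is -0.63 to -0.40. *BTRC* lies on chromosome 10 from 103113790 to 103317078 on the plus strand. Its paralog *FBXW11*, or β-TrCP2, which recognises the same degradation signal, had 19.7 FPKM with and 20.9 FPKM without siRNA, a log2 ratio of -0.09. *FBXW11* was the larger part of the pair in both libraries, 62.3% without and 69.0% with siRNA, and the sum of the pair went from 33.6 to 28.6 FPKM.

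*CTNNB1* stood at 177 FPKM in the control against 178 FPKM after silencing, a log2 ratio of 0.01. Its counting interval, from an estimated 14306 and 13168 reads, is -0.02 to 0.05. *CTNNB1* lies on chromosome 3 from 41236232 to 41301587. The transcript of the substrate was thus within 1.01-fold between these libraries while that of *APC* differed by 2.66-fold. Protein was not measured in these files.

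The Dishevelled genes encode the adaptors through which activated Frizzled receptors inhibit the complex. *DVL2*, on chromosome 17 from 7128661 to 7137836, had 18.3 FPKM with and 20.4 FPKM without siRNA, a log2 ratio of -0.16. *DVL3*, on chromosome 3 from 183873165 to 183891402, had 16.0 and 16.4 FPKM, a log2 ratio of -0.04. Both lie well inside the range of the 500 genes nearest in level, at the 28.8th and 52.2nd percentile. The third gene of the family, *DVL1*, had the highest level, 35.7 FPKM without and 27.5 FPKM with siRNA, and a log2 ratio of -0.37. The share of *DVL1* in the family's sum was 49.2% without and 44.5% with siRNA, that of *DVL2* 28.2% and 29.5%, and that of *DVL3* 22.7% and 25.9%.

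**Figure D3:**
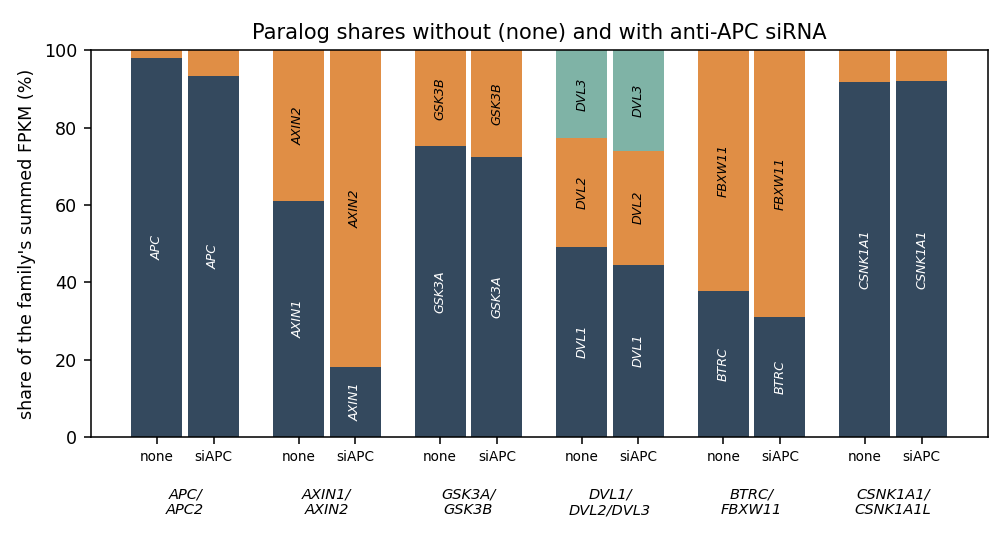
Share of each paralog in its family's summed FPKM (%), in the untransfected (none) and the anti-*APC* (siAPC) library, for 6 families. The *AXIN* pair differs most, from 61.1% to 18.1% *AXIN1*, while *CSNK1A1* stays near 92.1% of its pair.

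Of the 8 members other than *APC* with at least 1 FPKM, 6 lay between the 5th and 95th percentile of the 500 genes nearest to them in level. *GSK3A* and *CSNK1A1* lay just outside, *GSK3A* at -0.446 against a 5th percentile of -0.445, and *CSNK1A1* at 0.333 against a 95th percentile of 0.320. By construction 10 in 100 of the near genes lie outside these limits.

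The wider machinery of β-catenin turnover was described with 52 further genes, of which 46 had at least 1 FPKM in both libraries. Their median log2 ratio was 0.00, beside -0.05 over all genes. At the 1.5-fold limit 2 of the 46 were higher and 3 were lower, beside the 2.29% and 5.76% of all genes. At the lower limit of 0.32 (log2) 2 were higher and 7 lower, beside 6.86% and 17.5%. The 6 genes below the minimum were *AMER2*, *AMER3*, *FRAT1*, *DACT2*, *DACT3* and *CXXC4*. The genes higher by 1.5-fold were *AXIN2* and *NKD1*, which encodes a Dishevelled-binding inhibitor induced by WNT signalling and had 3.44 FPKM with and 1.68 FPKM without siRNA. The genes lower by 1.5-fold were *LRP5*, *CDH1* and *CBY1*. The WNT co-receptor *LRP5* had 7.61 FPKM with and 13.0 FPKM without siRNA. *CDH1*, which encodes E-cadherin, the membrane partner of β-catenin, had 12.1 and 19.0 FPKM. *CBY1*, which encodes Chibby, an antagonist of nuclear β-catenin, had 10.6 and 18.3 FPKM.

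The members *CSNK1A1*, *GSK3A* and *BTRC* passed the lower limit. The further catalytic and ubiquitin ligase genes were mostly within 0.32 of 0 on the log2 scale. None of the 9 further casein kinase genes or the 4 further genes grouped with the SCF ligase passed that limit. Nor did any of the 9 genes of the phosphatase PP2A or the 5 genes of Axin turnover (tankyrases, RNF146 and others). The highest Axin turnover ratio, 0.318, was just under the unrounded limit of 0.322, and *CSNK1A1*, at 0.333, was just over it. The 7 listed genes lower by that limit were in other groups. These were 3 Dishevelled genes and regulators, 1 co-receptor and 3 partners of β-catenin. The 2 higher were *AXIN2* and *NKD1*. Over all genes 6.86% were higher and 17.5% lower by that limit, a share not matched for level. The casein kinase ratios ran from -0.13 to 0.28 and the SCF ratios from -0.16 to 0.03 on the log2 scale. Over all 11815 genes 58.4% were below 0, that is, lower with anti-*APC* siRNA. Of the 9 PP2A genes 1 was below 0 and 8 were above, with a median log2 ratio of 0.12 and a highest of 0.31. Among the 5 Dishevelled genes and regulators with at least 1 FPKM, 4 were below 0 and *NKD1* was above. Among the 5 partners of β-catenin, 4 were below 0, with a median of -0.58. With so few genes in each, nothing particular to the PP2A, Dishevelled or partner groups is read from the counts beside that share.

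**Figure D4:**
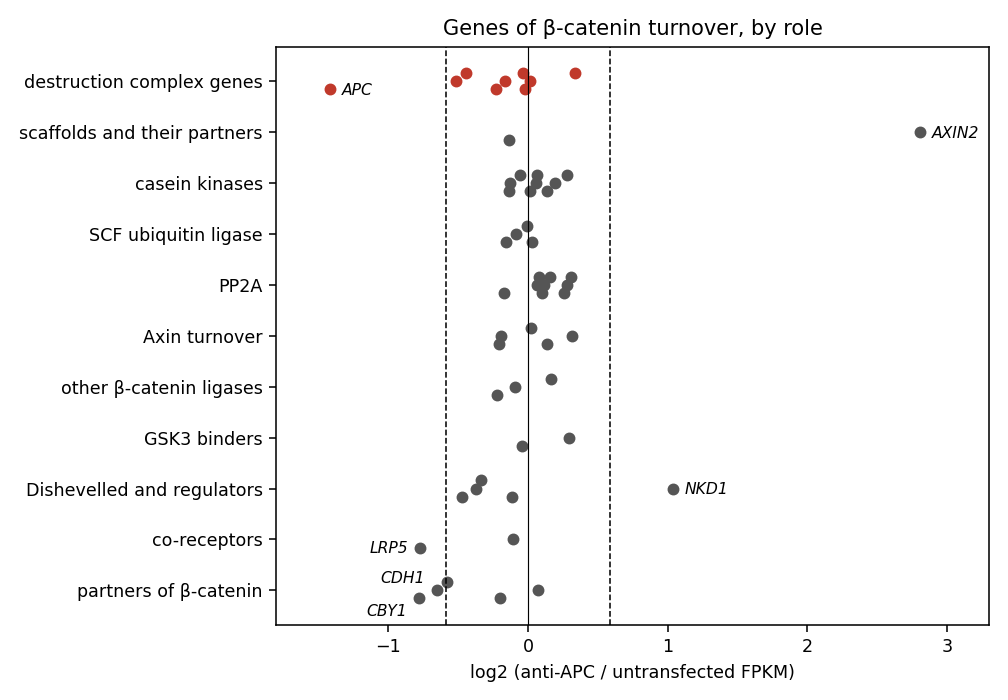
Log2 ratio of anti-*APC* over untransfected FPKM for 9 destruction complex genes (red) and 46 other genes of β-catenin turnover (grey), by role, with dashed lines at 1.5-fold. Points outside the lines are named, *APC*, *LRP5*, *CDH1* and *CBY1* to the left and *NKD1* and *AXIN2* to the right.

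The promoter windows of 9 of the 10 genes (250 bases before to 50 after the start, RefSeq, GRCh38.p14) held a median of 34 CpG against 14 over 35116 windows. Only the first listed window of each member was used, whereas the 35116 windows were not reduced in this way. Any other promoter window of the members was not searched. *BTRC* had no matching window. *APC* had the lowest count of the members, 14. The TCF word ATCAAAG, searched on both strands, was in 0 of the 9 windows and in 2.62% of all windows. The AP-1 word TGACTCA, searched on both strands, was in 0 of the 9 and in 4.95% of all. This says only that these letters are not in these windows.

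All 7 epithelial markers were at 12.1 FPKM or more in both libraries, summing to 1757 FPKM without and 1364 FPKM with siRNA, and *CDH1* is among them. All 7 were lower with siRNA, with log2 ratios from -0.15 to -0.78, beside 58.4% of all genes lower. *CLDN4* and *CDH1* were lower by the 1.5-fold limit, beside 5.76% of all genes. Of 5 intestinal markers only *CDX2* reached 1 FPKM, with 7.33 FPKM without and 6.77 with siRNA, and the other 4 were listed at 0 in 1 of the libraries. The 3 leukocyte markers summed to at most 0.224 FPKM and the 3 endothelial markers to at most 0.0725 FPKM in either library. Of 4 fibroblast markers only *COL1A1* was above 1 FPKM, at 2.85 and 3.08. The part of the lower epithelial sum in the ratios above was not tested.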

How the data were processed

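Cells, libraries and groups are those of the labels. The deposited values are FPKM, which the authors obtained with Cufflinks and Cuffdiff from single-read libraries, and the submitters' processing notes name hg19. Aligner, version and annotation are not given in the sources used here. The deposited natural log fold changes, test statistics, p-values and q-values are the authors' own comparison and were not used. The table has 0 further columns of per-sample values, and 269 rows with status FAIL are listed at 0, none of them a member.

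Log2 ratios are of FPKM without a pseudocount. With 1 library per group no test was made, and a gene was counted when it passed the fold with at least 1 FPKM in both libraries. Low values fall on steps of single reads: of 2454 genes under 0.2 FPKM, 379 share 1 ratio within 0.01 on the log2 scale, which makes 1 read worth 0.13 more (log2) in the anti-*APC* library. From 221 genes at 1 against 2 reads and GENCODE 44 transcript lengths, depth was near 22100000 reads (quartiles 12500000 and 25800000) without and 20200000 with siRNA. Reads per gene and their intervals rest on this and cover counting error only. Members and lists were chosen with earlier results of these data known. Named genes were the 10 members, their paralogs, locus partners, and listed turnover genes past 1.5-fold. Coordinates are from GENCODE 44 on GRCh37, 1-based. Alternatives were other folds, FPKM minimums, pseudocounts of 1 and 0.1 FPKM, and centring by the median, a trimmed mean, the upper quartile or a lowess trend. The scripts were tested on simulated data. Software versions were matplotlib 3.10.9, statsmodels 0.14.6, pandas 2.3.3 and numpy 2.4.6 under Python 3.11.15.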

Additional observations from a re-analysis of the deposited data

How the results depend on the processing

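Under 6 alternatives of scaling and pseudocount, none of the 60 member ratios moved by more than the robust SD of the 500 genes nearest in level. That SD is a spread between genes and not a replicate spread, and it is a loose limit. Centring by the trimmed mean shifted ratios by at most 0.054, against an SD of 0.168 near *CTNNB1*. *APC* ranged from -1.41 to -1.19 on the log2 scale, *BTRC* from -0.51 to -0.45, *GSK3A* from -0.45 to -0.39 and *CSNK1A1* from 0.33 to 0.39. *APC2* ranged from 0.09 (pseudocount of 1 FPKM) to 0.71, and with its transcript length halved its counting error was 0.44 in place of 0.31. *AXIN1* and *DVL3*, both near 0, changed sign. The count of members past the limit was 1 of 9. It was 4 of 9 at a limit of 0.32 (log2) and 0 of 8 with at least 5 FPKM in both libraries, which leaves out *APC*. The count of turnover genes, 5 of 46, became 9 at 0.32, 2 at 2-fold and 3 of 39 with at least 5 FPKM. The count over all genes, 950 of 11815 (8.04%), became 2875 (24.3%) at 0.32, 209 (1.77%) at 2-fold and 617 (5.22%) with a pseudocount of 1 FPKM. With other genes counted it was 3162 of 16289 (19.4%) with no minimum, 439 of 8939 (4.91%) with at least 5 FPKM, and 633 of 9003 (7.03%) over rows alone at their locus, a setting chosen after seeing the data. Between the libraries the share of *APC* with *APC2* went to 93.3%, of *AXIN1* to 18.1% and of *BTRC* to 31.0%. No paired analysis was possible because each group has 1 library. Leaving out a library was not possible for the same reason.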
